A study of Mus musculus with 8 samples.

Results

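The killer lectin-like receptors are C-type lectin-like membrane proteins that natural killer (NK) cells use to read ligands on other cells, and activated CD8+ T cells share several of them. The 7 receptor genes Klrd1, Klrc1, Klrc2, Klrk1, Klrg1, Klre1 and Klrb1c were taken by symbol, and all 7 mapped to 1 Ensembl gene each among the 55536 genes of the count tables. RNA had been sequenced from OT-1 CD8+ T cells, whose transgenic receptor recognises SIINFEKL, a peptide of ovalbumin. The donors of both groups were C57BL/6 mice aged 5 to 12 weeks on a Rag-1KO background, with CD45.1 or CD45.2 alleles. Their lymph node cells received 100 nM of the peptide for 2 days and then 20 ng/ml recombinant human IL-2 for another 2 days. During the IL-2 days the GC7 group (4 libraries) also received 10 µM GC7, a spermidine analogue that blocks DHPS and so the hypusination of the translation factor eIF5a, though it also has other effects, and the Mock group (4 libraries) received the same volume of 10 mM acetic acid, the vehicle. No sorting of the cells before RNA extraction was described in the sources used here. The study states that nearly all lymphocytes taken from the nodes were CD8 T cells, and Rag-1KO mice lack B cells and T cells other than the transgenic ones but do have NK cells.

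CD94, the product of Klrd1, forms a heterodimer with an NKG2 chain. With NKG2A (Klrc1), whose cytoplasmic tail carries inhibitory motifs, the pair inhibits the cell, and with NKG2C (Klrc2) it activates through the adaptor DAP12. The ligand of both pairs is the non-classical MHC class I molecule Qa-1. NKG2D (Klrk1) is a homodimer that signals through the adaptor DAP10 and binds stress-induced MHC class I-like proteins. KLRG1 is an inhibitory receptor for cadherins and a marker of terminally differentiated effector T cells, KLRE1 pairs with the KLRI chains, and NKR-P1C (Klrb1c) is an activating receptor that defines NK cells in C57BL/6 mice.

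All 7 genes lie on chromosome 6 in GRCm38, and 6 of them sit in the NK gene complex. There Klrb1c (128778485 to 128789215, minus strand), Klre1 (129577905 to 129585827, plus strand), Klrd1 (129591782 to 129598775, plus strand), Klrk1 (129610323 to 129623864, minus strand), Klrc2 (129647496 to 129660689, minus strand) and Klrc1 (129666015 to 129678973, minus strand) follow each other. Klrg1 (122270596 to 122282882, minus strand) lies apart from them. RefSeq promoter windows on GRCm38.p6, which run from 250 bases before to 50 bases after a transcript start, were at hand for 5 of the 7 genes and not for Klrd1 and Klrg1. The windows of Klrk1, which has the largest change of the 4 members tested below, and of Klrc1 and Klrc2, the pair of near-identical genes, are shown 5′ to 3′ on the strand of the gene, with the RUNX-type hexamer TGTGGT or its reverse complement in capitals. They cover chr6:129623815-129624114 for Klrk1, chr6:129678924-129679223 for Klrc1 and chr6:129660547-129660846 for Klrc2, for which 1 of 2 windows is printed.
Klrk1: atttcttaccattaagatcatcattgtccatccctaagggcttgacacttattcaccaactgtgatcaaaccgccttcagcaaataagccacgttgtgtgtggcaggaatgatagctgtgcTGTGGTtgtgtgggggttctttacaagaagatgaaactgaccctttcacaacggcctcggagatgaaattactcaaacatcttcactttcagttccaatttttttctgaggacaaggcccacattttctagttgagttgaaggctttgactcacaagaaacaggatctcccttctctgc
Klrc1: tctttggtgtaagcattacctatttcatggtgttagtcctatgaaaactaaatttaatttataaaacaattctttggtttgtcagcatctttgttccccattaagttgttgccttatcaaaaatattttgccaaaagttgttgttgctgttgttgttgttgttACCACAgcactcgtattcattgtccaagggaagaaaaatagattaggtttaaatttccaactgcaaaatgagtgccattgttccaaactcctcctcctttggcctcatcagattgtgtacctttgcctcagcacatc
Klrc2: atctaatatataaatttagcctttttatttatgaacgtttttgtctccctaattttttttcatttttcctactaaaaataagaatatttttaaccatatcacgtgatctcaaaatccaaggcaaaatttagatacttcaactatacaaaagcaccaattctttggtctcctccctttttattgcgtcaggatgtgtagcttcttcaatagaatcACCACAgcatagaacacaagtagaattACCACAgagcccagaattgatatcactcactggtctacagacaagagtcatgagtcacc

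The hexamer TGTGGT occurred on either strand in a window of all 5 members that had one, Klrb1c and Klre1 included. For Klre1, 1 of 2 windows held it. Over all 27025 genes with a window, 18.9% held it. Klrc1 and Klrc2 are near-identical neighbours, and whether the members exceed that share was not tested. In the Klrk1 window the hexamer began 129 bases before the start. A T-box type hexamer, AGGTGT, was in a window of 0 of the 5 members and of 15.7% of all genes. The palindromic AP-1 type motif TGANTCA was in those of 2 members, Klrk1 and Klrc2, against 8.97% of all genes, and TATAAA in those of 2 members, Klrc1 and Klrc2, against 15.7%. The motifs were searched on both strands and can overlap each other, and a match of letters does not show that a protein binds there.

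Total counts per library ranged from 17528776 to 25284730. Of the 55536 genes, 11189 had more than 3 CPM (counts relative to the library total, on a common scale) in at least 4 of the 8 libraries and were tested. Of the receptors, 4 passed this filter (Klrk1, Klrd1, Klrc1 and Klrc2), each in all 8 libraries, and 3 had too few counts (Klre1, Klrb1c and Klrg1). Mock replicate 2 stood apart from the other Mock libraries on the second principal component, at -22.4 against 7.90 to 8.38. Results without it are also given below for the receptors that had a test and for their ratios. They are given too for the counts of the ligand, adaptor and signalling, and regulator lists. The summed levels of the cell type markers include it. All 10 CD8 T cell markers were expressed and tested, with a summed level of 4695 to 5412 CPM in Mock and 4074 to 4348 CPM in GC7 libraries. The methods call the libraries of a group biological replicates without saying whether they came from separate animals, so p-values measure the spread between these libraries. The RNA is bulk, so that fewer cells carrying a receptor and less receptor mRNA per cell cannot be told apart.

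Klrk1, which encodes NKG2D, was lower in GC7-treated cells. The Mock libraries held 2781, 2728, 3036 and 2693 counts and the GC7 libraries 1731, 1632, 1685 and 1886 (replicates 1 to 4). As CPM scaled by TMM factors these were 142, 115, 141 and 134 in Mock and 83.8, 73.9, 93.5 and 78.4 in GC7. Every GC7 library was below every Mock library, and Mock replicate 2 was the lowest of its group. The means were 133 ± 12.3 CPM in Mock and 82.4 ± 8.46 CPM in GC7 (SD, n = 4). In edgeR's quasi-likelihood test with Benjamini-Hochberg adjustment the log2 change was -0.69 (95% confidence interval -0.88 to -0.50, SE 0.0869, adjusted p = 2.7e-05). NKG2D mRNA was thus 38.1% lower, short of a 2-fold change. Without Mock replicate 2 the log2 change was -0.75.

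Klrd1, the CD94 chain, was lower by a smaller amount. It was at 89.3, 107, 99.4 and 99.6 CPM in the Mock libraries and at 68.0, 78.4, 85.9 and 85.5 CPM in the GC7 libraries. The groups did not overlap, but the highest GC7 and the lowest Mock library lay close together. From 98.7 ± 7.13 CPM to 79.5 ± 8.39 CPM (SD, n = 4), the log2 change in edgeR's test was -0.31 (95% confidence interval -0.49 to -0.13, SE 0.0832, adjusted p = 0.00611). This call was near the threshold of 0.01 and held narrowly without Mock replicate 2, at -0.27 (adjusted p = 0.00928, edgeR). It was lost without Mock replicate 3, Mock replicate 4, GC7 replicate 1 or GC7 replicate 2, where the adjusted p in edgeR's test was 0.0161, 0.0171, 0.0180 and 0.0177, and with library totals in place of TMM factors, where it was 0.0306.

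The Klrc chains that pair with CD94 did not pass the test. Klrc1, the inhibitory NKG2A chain, was at 17.3, 14.1, 21.7 and 20.9 CPM in the Mock libraries and at 16.7, 14.9, 16.99 and 18.6 CPM in the GC7 libraries. The range of the GC7 libraries lay inside that of the Mock libraries. In edgeR's test the log2 change was -0.14 (95% confidence interval -0.42 to 0.14, SE 0.129, adjusted p = 0.378). The lowest Mock value was that of replicate 2, and without that library the log2 fold change was -0.25 with an adjusted p of 0.0439 in edgeR's test, still above the threshold. Klrc2, the activating NKG2C chain, was at 7.24, 5.16, 7.65 and 7.18 CPM in the Mock libraries and at 6.05, 6.07, 4.22 and 7.35 CPM in the GC7 libraries. These groups overlapped too, and GC7 replicate 3, with 76 counts, was the lowest of all 8. For Klrc2 edgeR gave a log2 change of -0.19 (95% confidence interval -0.56 to 0.19, SE 0.173, adjusted p = 0.371). This interval and that of Klrc1 both leave room for a decrease larger than the -0.31 of Klrd1. The Klrc2 value was -0.30 without Mock replicate 2, -0.31 without GC7 replicate 4 and -0.06 without GC7 replicate 3.

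**Figure D1:**
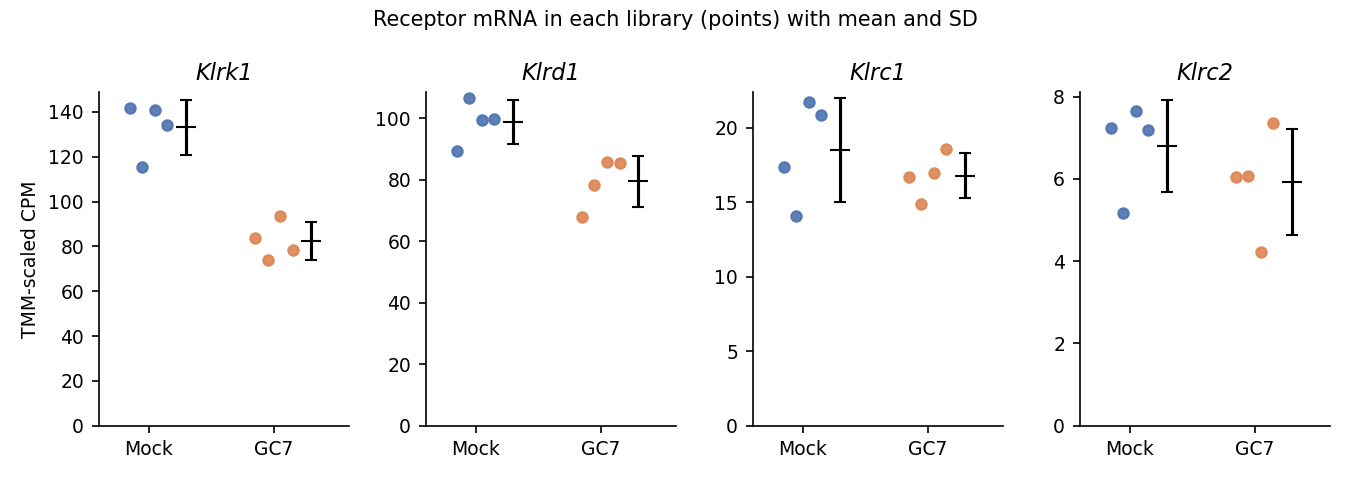
TMM-scaled CPM (vertical axis, from 0, a scale for each gene) of the 4 tested receptors in the 4 Mock (blue) and 4 GC7 (orange) libraries, with points in replicate order and bars for the mean and SD. Klrk1 fell from 133 to 82.4 CPM and Klrd1 from 98.7 to 79.5 CPM without overlap of the groups, while Klrc1 and Klrc2 overlapped.

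Past the threshold were thus 2 of the 4 tested receptors, both lower and neither by 2-fold. Over all tested genes, 23.5% were lower and 23% higher at an adjusted p under 0.01, or 46.6% in all. With a change over 2-fold as well these were 5.31% lower, 3.17% higher and 8.48% in all. Groups that did not overlap were found for 27.5% of tested genes with GC7 lower and for 28.1% with GC7 higher. Among the alternative fits, the share of genes called lower was 23.8% with RLE factors, 18.4% with library totals, 11.9% with no filter, 21.3% with edgeR's filterByExpr, 25.6% with DESeq2, 23.4% with limma-voom and 22.2% with a replicate block. Leaving out Mock replicates 1 to 4 in turn it was 21.5%, 25.4% (with 25.6% higher), 21.2% and 20.6%, and leaving out GC7 replicates 1 to 4 it was 20.7%, 20.8%, 22.8% and 20.7%. The median log2 fold change over all tested genes was 0.02 with TMM factors and 0.11 with library totals. Relative to that median, Klrk1 was at -0.71 under both scalings and Klrd1 at -0.33.

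**Figure D2:**
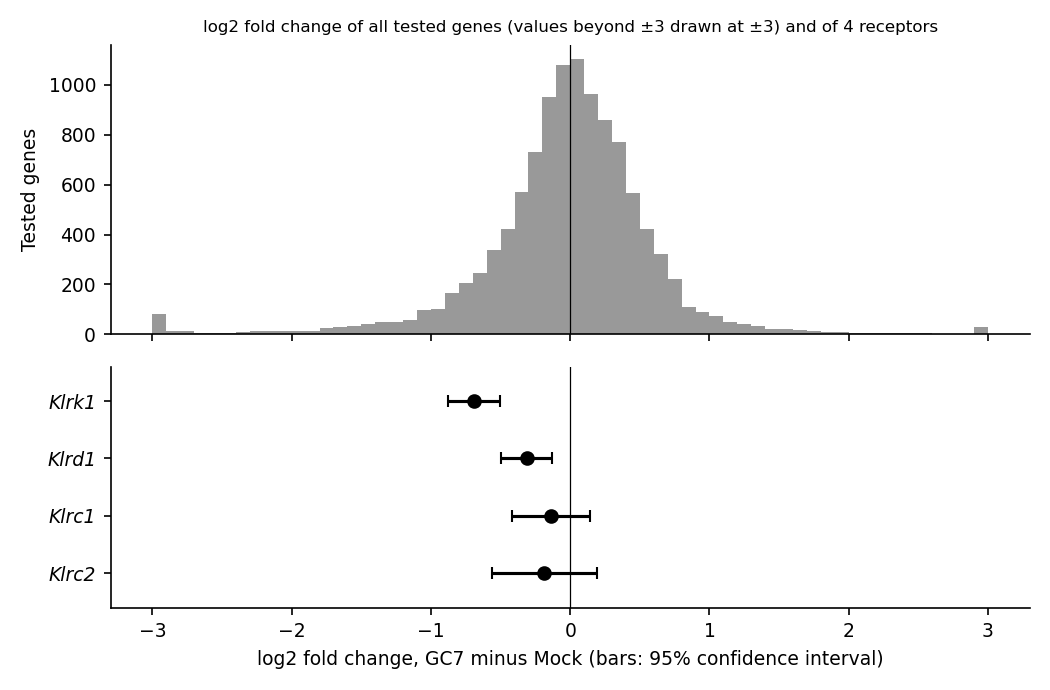
Upper panel, histogram of the log2 fold change (GC7 minus Mock) of the 11189 tested genes, with values beyond 3 in either direction drawn at the edge; lower panel, the 4 tested receptors on the same axis with 95% confidence intervals. The intervals of Klrk1 (-0.88 to -0.50) and Klrd1 (-0.49 to -0.13) lie below 0, and those of Klrc1 and Klrc2 include it.

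Klrc1 and Klrc2 resemble each other so closely that the counting could have split or dropped reads between them. Their transcripts matched over 1163 bases at 98.9% identity, and both also matched Klrc3, the third gene of the cluster, over 399 bases (94.5%) and 736 bases (93.2%). Of all stretches of 100 bases in Klrc1 transcripts, 14.6% also occurred in a Klrc2 transcript, and 7.09% of those of Klrc2 occurred in Klrc1 or Klrc3. At 150 bases the shares were 4.32% and 2.48%. For Klrd1, Klrk1, Klre1 and Klrg1 the share was 0% at either length. The length of the reads and the handling of reads with several matches were not given in the sources used here.

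Set per kilobase of annotated exon, the mRNA of Klrd1 was the most abundant of the 7. These are levels of mRNA, and the amounts of the receptor proteins were not read from them. In Mock libraries the scaled level was 77.1 ± 5.56 CPM per kb for Klrd1, 18.5 ± 1.71 for Klrk1, 9.32 ± 1.76 for Klrc1, 1.17 ± 0.192 for Klrc2, 0.353 ± 0.103 for Klre1, 0.0286 ± 0.0258 for Klrb1c and 0.00881 ± 0.0176 for Klrg1 (SD, n = 4). The same order held in GC7 libraries, at 62.0 ± 6.55 CPM per kb for Klrd1, 11.5 ± 1.18 for Klrk1, 8.46 ± 0.759 for Klrc1 and 1.02 ± 0.222 for Klrc2. Neighbours in this order did not overlap in either group, except Klrb1c and Klrg1, which did. Among all tested genes, Klrd1 stood at the 93.8th percentile of the level per kb in Mock and at the 92.8th in GC7. Klrk1 went from the 73.6th to the 62.1st percentile, and Klrc2 was at the 7.15th and the 5.92nd. The exons of Klrk1 span 7183 bases and those of Klrd1 only 1281, and with the longest protein-coding transcript as the length (3197 and 919 bases), a choice made after the data were seen, the order of all 7 genes was the same. On that length Klrd1 was at 107 CPM per kb in Mock and 86.5 in GC7, and Klrk1 at 41.6 and 25.8, so that the distance between these genes depends on the length used.

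Ratios within a library do not depend on how libraries are scaled, and served to compare the mRNAs of chains that act together. They do not give the balance of the proteins. NKG2A counts exceeded NKG2C counts in every library, without correction for gene length. Reads shared between these near-identical genes, as described above, could affect their ratio. The Klrc1 to Klrc2 ratio was 2.38, 2.702, 2.81 and 2.88 in Mock and 2.73, 2.43, 3.95 and 2.51 in GC7 libraries. Only GC7 replicate 3 stood above the Mock range. The mean log2 ratio was 1.43 ± 0.12 in Mock and 1.51 ± 0.32 in GC7 (SD, n = 4), a difference of 0.08 (p = 0.771, and 0.771 adjusted over 3 ratios, exact permutation test, two-sided). The difference was -0.072 without GC7 replicate 3 and 0.09 without Mock replicate 2.

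The ratio of Klrc1 to its partner Klrd1 averaged -2.43 ± 0.33 on the log2 scale in Mock and -2.23 ± 0.16 in GC7 libraries (SD, n = 4). Mock replicate 2 was lowest, at -2.91. The difference of 0.19 was within the spread between replicates (p = 0.4, adjusted p = 0.6, exact permutation test, two-sided). Leaving out Mock replicate 2 brought it to 0.03.

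For NKG2D and its adaptor, the log2 ratio of Klrk1 to Hcst (DAP10) was 2.57 ± 0.38 in Mock and 2.20 ± 0.19 in GC7 libraries (SD, n = 4). Mock replicate 2, at 2.01, lay below all GC7 libraries (2.04 to 2.44) and apart from the other Mock libraries (2.65 to 2.86). The difference of -0.37 did not exceed the spread (p = 0.171, adjusted p = 0.514, exact permutation test, two-sided). Without Mock replicate 2 it was -0.55 and the groups no longer overlapped (p = 0.0571, exact permutation test, the smallest p that 3 against 4 libraries allow).

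Whether Klrk1 fell by more than Klrd1 was asked after both changes had been seen. Their log2 ratio was 0.67, 0.11, 0.50 and 0.43 in Mock and 0.30, -0.09, 0.12 and -0.13 in GC7 libraries. The means differed by -0.37, with overlap between the groups (p = 0.0857, unadjusted, n = 4, exact permutation test, two-sided). Without Mock replicate 2 the difference was -0.48 and the groups no longer overlapped. The p was then 0.0571 (exact permutation test), the smallest that 3 against 4 libraries allow. A larger fall of NKG2D than of CD94 mRNA was therefore not established with these libraries.

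**Figure D3:**
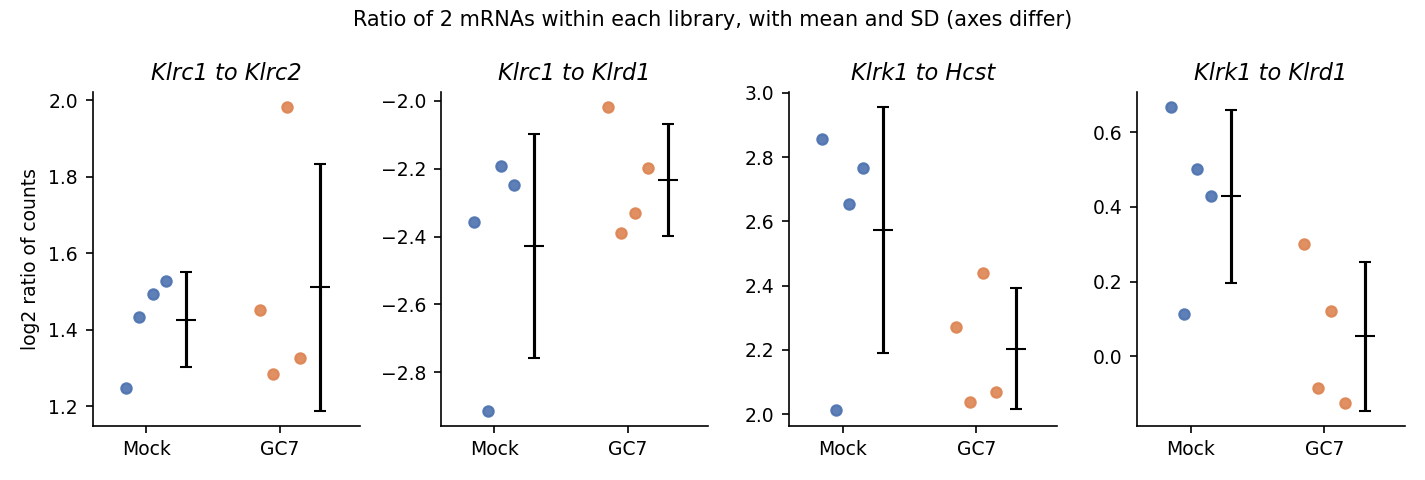
log2 ratio of the counts of 2 mRNAs within each Mock (blue) and GC7 (orange) library, with mean and SD; the vertical axes differ and do not start at 0. All 4 ratios overlap between the groups, with mean differences of 0.08, 0.19, -0.37 and -0.37 from left to right.

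The other 3 receptors were under the filter of 3 CPM, Klre1 with counts in every library and Klrb1c and Klrg1 at or near the limit of detection. Klre1 had 32, 33, 24 and 16 counts in the Mock and 26, 36, 17 and 32 in the GC7 libraries, or 1.23 ± 0.360 and 1.29 ± 0.282 CPM (SD, n = 4; p = 0.8, exact permutation test, two-sided). The groups covered nearly the same range, and without Mock replicate 2 the p was 0.743 (exact permutation test). The fit that kept 14517 genes by filterByExpr, of which 40.9% passed in either direction, gave it a log2 change of 0.07 (95% confidence interval -0.50 to 0.63, adjusted p = 0.843, edgeR). A change inside that interval is not excluded by these counts.

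Klrb1c, the NK cell receptor NKR-P1C, had 1, 1, 1 and 4 counts in Mock and 12, 7, 1 and 4 counts in GC7 libraries. GC7 replicates 1 and 2 were above all Mock libraries and the other two were not. Summed over a group these were 7 and 24 counts, and the difference in CPM was within the spread between replicates (p = 0.171, n = 4, exact permutation test, two-sided). Without Mock replicate 2 the p was 0.286 (exact permutation test). A fit over all 28350 genes with any count gave a log2 change of 1.70 (95% confidence interval 0.29 to 3.11, adjusted p = 0.0599, edgeR), which did not pass and rests on these few counts. The transcripts of Klrb1c matched those of Klrb1a, Klrb1b, Klrb1-ps1 and Gm44511 at 90.3% to 92.4% identity, and 13.9% of its exon bases also belonged to Gm44511 on the same strand, a gene with 0 counts.

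Klrg1 had 1 count in Mock replicate 4, 1 count in GC7 replicate 2 and 0 in the remaining 6 libraries. The 3 counts that a reading of 0 allows correspond to 0.125 to 0.167 CPM, and this covers counting error only. KLRG1 mRNA was therefore not measurable in either group, and no fold is given.

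**Figure D4:**
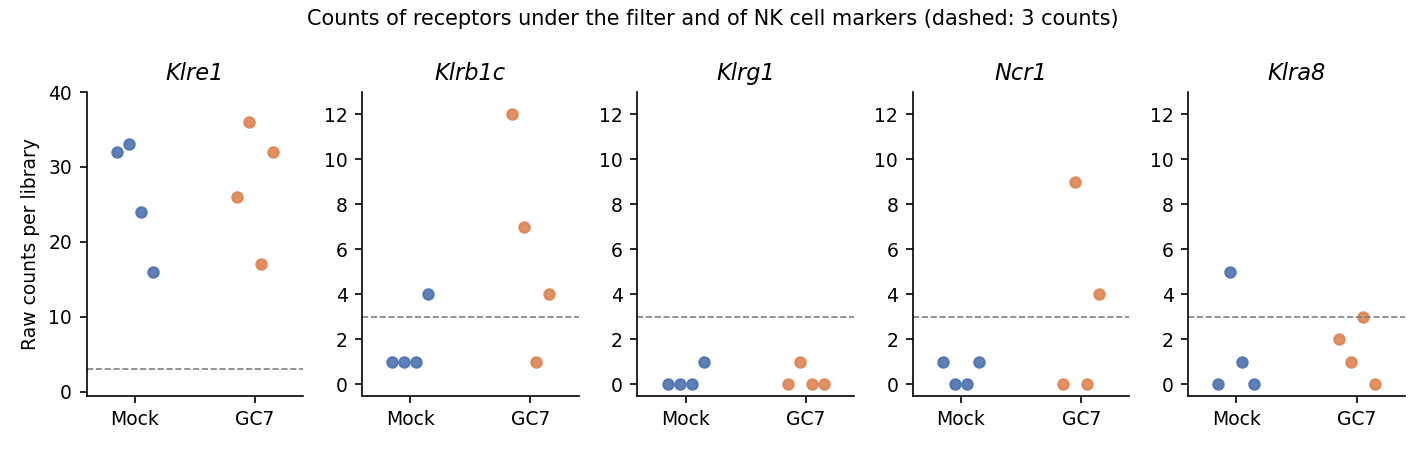
Raw counts per library (vertical axis; 0 to 40 for Klre1, 0 to 13 for the others) of the 3 receptors under the filter and of the NK cell markers Ncr1 and Klra8, in Mock (blue) and GC7 (orange) libraries, with a dashed line at 3 counts. Klre1 lies at 16 to 36 counts in both groups and Klrg1 at 0 or 1.

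Markers of other cells that lymph node cultures could hold were read beside these values. Of 12 NK cell markers, 3 passed the filter (Cd244a, Itga2 and Txk), and these made up 88.5% to 95.96% of the list's counts. The markers taken as defining NK cells, Ncr1, Klra8 and Klrb1c, were near 0 in both groups, and their mean levels were not lower in GC7. Ncr1 had 1, 0, 0 and 1 counts in Mock and 0, 9, 0 and 4 in GC7 libraries, and Klra8 had 0, 5, 1 and 0 in Mock and 2, 1, 3 and 0 in GC7. Klrb1b, another marker of the list, had 2, 0, 1 and 4 counts in Mock and 4, 8, 5 and 4 in GC7 libraries, and Klrb1c, as given above, had 7 counts in all in Mock and 24 in GC7. Other markers of the list with few counts had lower means in GC7. S1pr5 had 4, 1, 3 and 5 counts in Mock and 1, 0, 1 and 0 in GC7 libraries. Fcgr3 had 11, 26, 17 and 16 counts in Mock and 6, 6, 13 and 9 in GC7 libraries. Tyrobp had means of 0.409 CPM in Mock and 0.342 CPM in GC7, and Klra4 means of 0.0498 and 0.0926 CPM. The summed level of the list was lower, at 61.0 to 65.7 CPM in Mock and 41.4 to 48.1 CPM in GC7 libraries, the direction of Klrk1 and Klrd1. The markers outside the 3 tested ones summed to 4.19 to 7.57 CPM in Mock and 1.74 to 2.28 CPM in GC7, and Fcer1g, an Fc receptor chain on the same list that held most of these counts in each Mock library, had 52 to 134 counts per Mock library and 11 to 22 per GC7 library. Among the markers, Itga2 had a log2 fold change of -1.17 (adjusted p = 3.3e-06, edgeR) and Txk one of -0.40 (adjusted p = 0.00356, edgeR), genes that are not restricted to NK cells. These markers outside the rule were named after their values were seen. Of the 7 myeloid markers, 2 passed the filter, 3 had at most 3 counts in every library, and the list summed to 117 to 142 CPM in Mock and 85.1 to 114 CPM in GC7, of which Cst3 and Ctss gave 99.5% to 100% of the counts. The B cell list summed to 6.98 to 10.1 and 4.61 to 5.90 CPM, Ms4a1 and Pax5 were at 0 in all libraries, and Cd79b gave 77.7% to 93.7% of its counts. The CD4 T cell list summed to 92.6 to 96.9 CPM in Mock and 75.2 to 84.5 CPM in GC7, of which Zbtb7b gave 98.5% to 99.0% of the counts, while Cd4 had 2 to 9 counts per library. The part of such cells in the change of Klrk1 and Klrd1 was not tested.

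Among the 23 other genes whose symbols begin with Klr, 1 passed the filter. It was Klri2, which encodes a partner chain of KLRE1, and it rose from 4.47 ± 0.658 to 8.10 ± 0.194 CPM (SD, n = 4), by 0.85 on the log2 scale (adjusted p = 7.5e-05, SE 0.122, edgeR). Its counts were 80, 104, 117 and 80 in Mock and 162, 179, 147 and 200 in GC7 libraries, with no overlap. Its transcripts match Klri1 over 459 bases at 95.9% identity, and Klri1 had at most 1 count in any library. Of the 23 genes, 10 had at most 3 counts in every library, and 4 were at 0 throughout. None of the Ly49 receptor genes (Klra) passed the filter.

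The ligands of these receptors were measured in the same cells. Of 15 listed genes 11 were matched and 6 tested, of which 2 rose and 2 fell, with a median log2 fold change of -0.06 against 0.02 over all tested genes. Ulbp1, which encodes the NKG2D ligand MULT1, rose from 87.2 ± 14.02 to 191 ± 13.6 CPM (SD, n = 4), by 1.13 on the log2 scale (adjusted p = 2.5e-06, SE 0.107, edgeR). The NKG2D ligands of the RAE-1 and H60 families were far lower, at means of 0.0702 to 0.513 CPM for Raet1d, Raet1e and H60b, and H60c was at 0 in all libraries. Clec2i, a lectin-like ligand of other NKR-P1 receptors, rose by 1.25 on the log2 scale (adjusted p = 8.1e-08, edgeR), and its relative Clec2d fell by 0.65 (adjusted p = 6.8e-04, edgeR). Cdh1, encoding the KLRG1 ligand E-cadherin, fell from 10.3 ± 0.450 to 2.58 ± 0.832 CPM, which is -1.98 on the log2 scale (adjusted p = 1.9e-06, SE 0.182, edgeR).

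The MHC class I genes behind the CD94 ligand gave no call. H2-T23, which encodes Qa-1, was at 149 ± 19.6 CPM in Mock and 135 ± 7.96 CPM in GC7 libraries (SD, n = 4), with a log2 change of -0.14 (adjusted p = 0.199, edgeR) that was -0.04 without Mock replicate 2. H2-D1, a source of the leader peptide that Qa-1 presents, had a log2 fold change of 0.01 (adjusted p = 0.908, edgeR). Both share long near-identical stretches with other class I genes that also passed the filter, so their counts are uncertain.

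Of 17 adaptor and signalling genes, 14 were tested, 9 were lower, 1 was higher and 4 did not pass, and the median log2 fold change was -0.39. Hcst, the DAP10 adaptor of NKG2D, was at 22.5 ± 4.24 CPM in Mock and 17.7 ± 0.670 CPM in GC7 (SD, n = 4), and its log2 change of -0.34 did not pass (adjusted p = 0.0219, edgeR). Mock replicate 2 held 675 Hcst counts against 382, 481 and 394 in the other Mock libraries, and without it the log2 change was -0.20 (adjusted p = 0.0361, edgeR). Tyrobp, the DAP12 adaptor that CD94 and NKG2C need, was under the filter, with 5 to 12 counts per library and means of 0.409 and 0.342 CPM. The phospholipase Plcg1 fell by 0.86 on the log2 scale (adjusted p = 7.7e-08, edgeR), and the kinase Lck fell by 0.64 (adjusted p = 5.5e-06, edgeR). Of the phosphatases that inhibitory receptors recruit, Inpp5d (SHIP1) fell by 0.70 (adjusted p = 7.8e-06, edgeR) and Ptpn6 (SHP-1) fell by 0.68 (adjusted p = 9.2e-06, edgeR), while Ptpn11 (SHP-2), named after its value was seen, rose by 0.37 (adjusted p = 8.1e-04, edgeR). The PI3 kinase subunits Pik3r1 and Pik3cd fell by 0.61 and 0.46 (adjusted p = 3.7e-05 and 4.3e-05, edgeR).

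Transcription factors known from NK and effector T cell differentiation were the last list. Of 12, 10 were tested, 5 were lower, 2 were higher and 3 did not pass, with a median log2 fold change of -0.24. Prdm1 (Blimp-1) fell by 1.30 on the log2 scale (adjusted p = 1.8e-07, edgeR), Nfil3, needed for NK cell development, fell by 1.03 (adjusted p = 5.4e-06, edgeR), Runx3, which directs the CD8 lineage, fell by 0.97 (adjusted p = 3.0e-06, edgeR) and Id2 fell by 0.54 (adjusted p = 4.3e-05, edgeR). Tcf7, a factor of naive and memory T cells, rose by 1.66 (adjusted p = 2.0e-07, edgeR) and Bach2, a repressor of effector genes, by 0.60 (adjusted p = 1.2e-04, edgeR). Tbx21 (T-bet), at 18.4 ± 2.74 and 17.3 ± 1.53 CPM (SD, n = 4), had a log2 fold change of -0.08 (adjusted p = 0.527, edgeR) and 0.01 without Mock replicate 2. Without Mock replicate 2, an alternative chosen after seeing the data, the ligands again had 2 higher and 2 lower, with a median of 0.02 in place of -0.06, while the adaptor and signalling genes had 10 lower (Cbl in addition) and the regulators 6 lower (Ets1 in addition). All of these lists stand beside a background in which 46.6% of tested genes passed the same threshold in either direction and 23.5% were lower. With all 8 libraries, 9 of 14 adaptor and signalling genes were lower and 1 was higher. Of the 10 regulators, 5 were lower and 2 higher, and of the 6 ligands 2 were lower and 2 higher. The share of lower genes in the first 2 of these lists was thus above that of all tested genes. Whether it exceeds that background was not tested, and the lists were chosen with earlier results known. Nothing particular to the lists is therefore read from these counts.

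**Figure D5:**
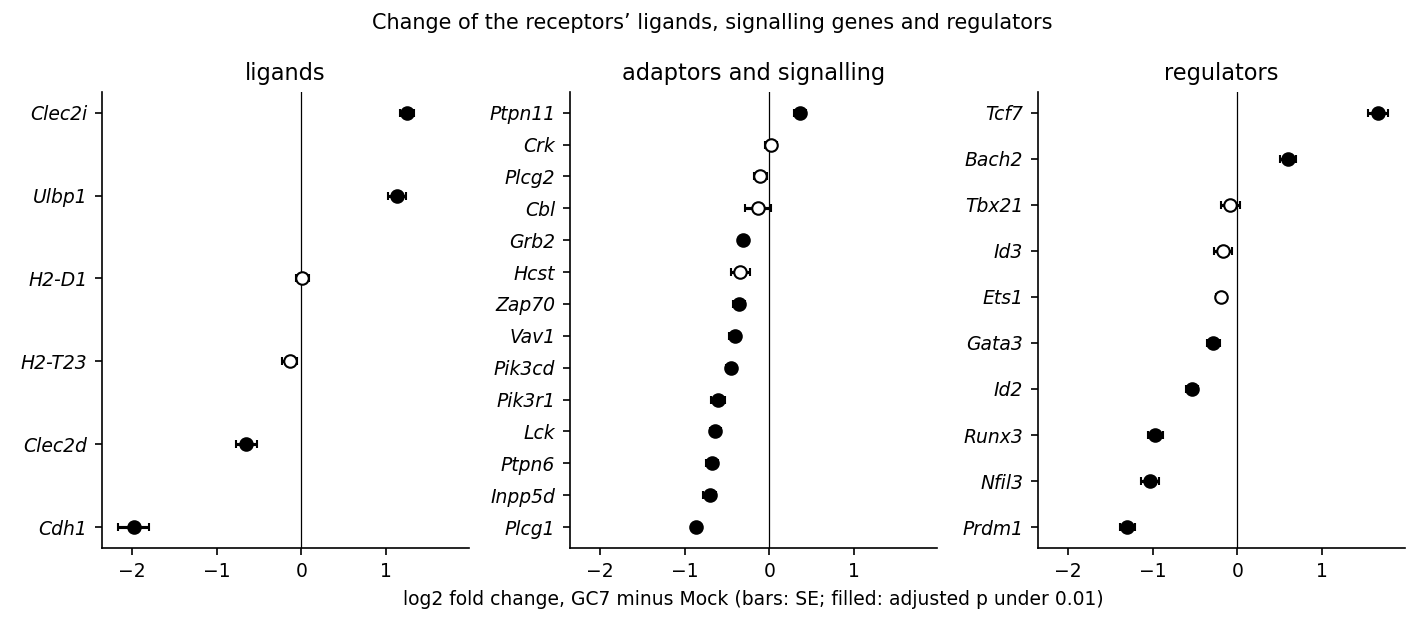
log2 fold change (GC7 minus Mock, horizontal axis) of the tested ligand, adaptor and signalling, and regulator genes, with bars for the standard error; filled points had an adjusted p under 0.01 in edgeR's test and open points did not. The lowest value is that of Cdh1 (-1.98) and the highest that of Tcf7 (1.66).

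The genes whose log2 CPM over the 8 libraries most resembled a receptor's were read as a description, since the difference between the groups is shared by all genes that changed. Klrk1 was closest to Icos (Pearson's r = 0.999), a costimulatory receptor, and St8sia4 (0.996), a polysialyltransferase, among 10191 other protein-coding genes. Klrd1 was closest to Khk (0.981), a ketohexokinase, and Arl5c (0.977). For Klrc1 the closest were Armcx3 (0.924) and Kat7 (0.920), and for Klrc2 Pkd1l3 (0.968) and Pacs2 (0.936).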

How the data were processed

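RNA-seq counts from 4 Mock and 4 GC7 libraries were used. The authors deposited raw counts per Ensembl gene, 1 table per library, made by trimming paired-end reads with Cutadapt (version 2.3), aligning with STAR (version 2.7.1a) against GRCm38 and counting with featureCounts. The strand setting is not given in the sources used here. Symbols, positions and lengths came from GENCODE M21. The tests used edgeR (version 4.0.16, R version 4.3.3) with TMM factors, a model of group alone and its quasi-likelihood F test. Adjustment was by Benjamini-Hochberg across 11189 genes above 3 CPM in at least 4 libraries, with an adjusted p under 0.01 as the threshold. Standard errors were the log2 fold change over the root of F. Single values were compared by two-sided exact permutation tests (smallest p for 4 against 4, 0.0286), with a prior count of 2 in ratios. Near-identical genes were found with BLAST (version 2.17.0; at least 200 bases, 90% identity). Alternatives were RLE factors, library totals, no filter, filterByExpr, DESeq2 (version 1.42.0), limma-voom (limma version 3.58.1), a replicate block, a prior count of 0.5 and leaving out each library. The fits were tested on simulated data with 200 changed genes among 11189. The planted changes were larger than those of the receptors, so this does not measure power for changes of their size. The members and gene lists were chosen with earlier results of these data known. Named from each list were at most 6 genes, those past the threshold with the largest change, with Hcst, Tyrobp and H2-T23; markers, Klr genes and genes named to give a count or a low level fall outside this rule. H2-D1 and Tbx21 were named after their values were seen.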

Additional observations from a re-analysis of the deposited data

Results flagged for a closer look

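In 24 groups of 4 libraries examined (7 receptors, 4 ratios and the summed NK cell markers, in Mock and in GC7), 3 had a library whose gap to its nearest neighbour, divided by the range of the group (Dixon's ratio), passed the 95% limit. Chance alone gives about 1 in 20 for continuous values, a rate that does not apply to the tied counts of 0 or 1 behind all 3. Klrb1c in Mock replicate 4, with 4 counts against 1 in each of the others, had a ratio of 0.945, taken on the scaled CPM. Klrg1 in Mock replicate 4 and in GC7 replicate 2 had a ratio of 1, from 1 count in that library and 0 in the remaining 3.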

How the results depend on the processing

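Klrk1 remained past the threshold under all 15 alternatives, with log2 fold changes of -0.76 to -0.65 as single libraries were left out and of -0.70 to -0.60 otherwise. The number of receptors past the threshold was 1 with library totals (Klrd1 at -0.22) and 1 to 2 as single libraries were left out (Klrd1 at -0.36 to -0.25); the other 6 alternatives gave 2. The median of all genes is 0.11 with library totals, and the cause of the loss was not tested. Klrc1 and Klrc2 passed in none, at -0.25 to -0.05 and -0.31 to -0.06 as libraries were left out, and 0 receptors passed with a 2-fold change in any. The sources do not say whether same-numbered libraries share an animal or a culture, and the numbers were not taken as pairs. Deviations of same-numbered libraries correlated at -0.18 to 0.27 and those of differently numbered ones at -0.31 to 0.42. With so few libraries these ranges cannot show whether the libraries are paired. A replicate block changed no call, with Klrk1 at -0.69 and Klrd1 at -0.32. As single libraries were left out, the Klrc1 to Klrc2 ratio differed by -0.072 to 0.16 (the lowest without GC7 replicate 3), Klrc1 to Klrd1 by 0.03 to 0.27, Klrk1 to Hcst by -0.55 to -0.27 and Klrk1 to Klrd1 by -0.48 to -0.30, none past a p of 0.05, which 3 against 4 libraries cannot reach. Raw counts limit Klrg1 and Klrb1c, which the depth of these libraries does not resolve.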

Other observations

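Several genes tied to these receptors lay under the filter of 3 CPM and were read in the fit with edgeR's filterByExpr, over 14517 genes of which 40.9% passed an adjusted p of 0.01. Fcer1g, which encodes the adaptor chain of NKR-P1C and of Fc receptors, had 67, 134, 65 and 52 counts in Mock and 11, 14, 12 and 22 counts in GC7 libraries, and fell by 2.41 on the log2 scale (adjusted p = 1.1e-05, SE 0.291, edgeR). Klrg2, a relative of Klrg1 outside the NK gene complex, fell by 0.96, from 47 to 59 counts per Mock library to 18 to 41 per GC7 library (adjusted p = 0.00161, edgeR). Zeb2, a transcription factor of terminal effector cells, rose from 0.815 ± 0.441 to 2.74 ± 0.304 CPM (SD, n = 4), by 1.76 on the log2 scale (adjusted p = 2.5e-04, edgeR). Klrc3, the near-identical neighbour of Klrc1 and Klrc2, held 16 to 43 counts per Mock library and 15 to 26 per GC7 library, and its log2 change of -0.70 did not pass (adjusted p = 0.0921, edgeR). These genes were chosen after their values were seen.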
